A study of Mus musculus with 21 samples.

Results

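The 36 genes described here drive or mark cell division: cyclins, cyclin-dependent kinases (CDKs), CDK inhibitors, the Rb and E2F regulators, and the genes of DNA replication and mitosis. They were picked by name from the 24206 gene names in the deposited expression table, all 36 were found, and none shared its name with another row. In adult brain endothelial cells 1 day after a stroke, Ccnd1 rose and Cdkn1b fell in both genotypes. The 10 members that act in mitosis or mark cycling cells had means below 1 RPKM in both experiments. No member passed the test between genotypes, although a fit with the replicate number as a block called Cdkn1a as higher in Cko-NS than in WT-NS. None passed with stabilised beta-catenin, where no gene of the whole table did.

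A cell leaves quiescence when D-type cyclins bind CDK4 or CDK6, the retinoblastoma protein is phosphorylated, and E2F factors are freed to turn on the genes of DNA replication. CDK inhibitors such as p27 (Cdkn1b) and p21 (Cdkn1a) hold this step back, and the genes of mitosis come on later, through promoters that often hold CCAAT boxes and a CHR element. Endothelial cells of the adult brain divide rarely, and Wnt and beta-catenin signalling, for which Gpr124 is a co-activator at the receptor, is known to act on Ccnd1 in many tissues.

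The stroke experiment occluded the middle cerebral artery for 1 h and allowed 1 day of reperfusion. The groups were Cko-ST and Cko-NS, the stroke and non-stroke hemispheres of Gpr124 flox/- mice, and WT-ST and WT-NS, the same hemispheres of Gpr124 flox/+ mice, with 4 libraries each. Both genotypes carried ROSA-CreER, a drug-inducible Cre that is active in many cell types, so the design did not limit the deletion to endothelium. The second experiment, without stroke, set 3 Bcat libraries (Ctnnb1 lox(ex3)/+, in which Cre removes exon 3 and stabilises beta-catenin) against 2 Ctnnb1 +/+ libraries, all with Cdh5-CreER, which is driven by an endothelial promoter. All mice were C57BL/6 adults of 12 to 20 weeks, and live CD31+ cells negative for CD45 and PDGFRb were sorted from brain. The labels give female mice for the stroke experiment other than male Cko-ST 3 and Cko-ST 4, and male mice for the other. Separate animals per library are not stated in the labels, and a p-value here covers only the spread among the libraries sequenced.

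Values were RPKM, in which the authors divided reads by a gene's length and by a library's depth. Estimated depth was 4.72 to 19.7 M reads in the stroke libraries and 6.62 to 15.1 M in the other 5, so that 1 read in a gene of 2 kb came to between 0.0254 and 0.106 RPKM. The summed RPKM of 10 endothelial markers was 1437 to 1598 in Cko-ST, 1200 to 1436 in Cko-NS, 1314 to 1437 in WT-ST and 1002 to 1187 in WT-NS. The sum joins markers that moved in opposite directions with stroke. Cdh5 and Emcn rose and Tek fell in both genotypes (limma, adjusted p of 0.00166 to 0.0469). Pecam1 rose in WT (adjusted p = 0.0320) and Flt1 fell in Cko (adjusted p = 0.0285). Cldn5, Kdr, Tie1, Esam and Erg were called in neither genotype. Gpr124 was at 0.50 to 1.72 RPKM in Cko-ST and 0.994 to 4.85 in Cko-NS, against 2.92 to 8.12 in WT-ST and 2.65 to 7.58 in WT-NS. These ranges overlap between Cko-NS and WT-NS, and a value over the whole gene cannot show whether the floxed part is gone. By Xist and Y-linked genes, Cko-ST 4 and Cko-NS 4 were male and Cko-ST 3 was female, so that Cko-ST 3 and Cko-NS 4 went against their labels. Results are given with these 2 libraries, and no call on a member in either stroke comparison was lost without them. Leaving them out kept male Cko-ST 4 against Cko-NS libraries that were all female by RNA, and the part of sex was not tested.

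A mean of 1 RPKM was reached by 19 of the 36 members in the stroke experiment and by 19 in the beta-catenin experiment, against 9843 and 11256 of the 24206 gene names. Of these, 17 reached it in both. Cdkn2c and Rrm2 reached it in the stroke experiment only, Cdk6 and Rrm1 in the other only, and 15 members in neither. The 2 experiments used different kits, so their levels were not set against each other. The members nearest the limit were Mcm3 at 1.57 and Mcm5 at 0.892 RPKM in the stroke experiment, and Ccna2 at 1.25 and Aurka at 0.962 RPKM in the other. A 3' digital-expression kit made the stroke libraries, and RPKM divides its 3' reads by gene length, so levels of different genes there are only roughly comparable.

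The 10 member genes of mitosis had low means. They comprised the mitotic cyclins Ccnb1 and Ccnb2, the kinases Aurka, Aurkb, Bub1 and Plk1, the anaphase activator Cdc20, the survivin gene Birc5, the proliferation antigen Mki67 and the topoisomerase Top2a. In the stroke experiment 90 of their 160 values (56.2%) were 0, against 43.1% of the values of all gene names, and 2 reached 1 RPKM, Aurka in Cko-ST 4 at 2.95 RPKM and Plk1 in Cko-NS 3 at 1.17 RPKM. In the beta-catenin experiment 25 of 50 values (50%) were 0, against 44.8% of the values of all gene names, and 5 reached 1 RPKM, with the highest, Aurka at 3.79 RPKM, in a Ctnnb1 +/+ library. Aurkb, the kinase of the chromosomal passenger complex, was listed at 0 in all 21 libraries. Cdk1, the kinase of mitosis, was at 5.48 RPKM in WT-ST 3 and at most 0.541 RPKM in any other library. Ccne1, a cyclin of the entry into S phase, was at 0 in all 8 Cko libraries, in 3 of 4 WT-NS libraries and in 1 of 4 WT-ST libraries. It reached 1.45 RPKM in WT-ST 4 and at most 0.367 RPKM in any other library of the stroke experiment. E2f1, an activating E2F factor, stayed between 0.130 and 0.782 RPKM in the stroke experiment. The lowest of these levels rest on few reads. Some in single libraries lay well above 3 reads in a gene of 2 kb, as did Cdk1 in WT-ST 3, where 3 reads came to 0.229 RPKM. The highest Aurka value did as well, where 3 reads came to 0.204 RPKM. None of these genes had a mean high enough to be tested. Other genes of spindle, kinetochore and cytokinesis were not all low, and 8 of 27 reached a mean of 1 RPKM in the stroke experiment and 10 in the other. Among them the checkpoint gene Bub3 averaged 20.6 RPKM in Cko-ST, 43.2 in Cko-NS, 21.8 in WT-ST and 19.4 in WT-NS. Its Cko-NS mean was raised by Cko-NS 1 at 95.9 RPKM, against 27.0, 27.9 and 21.9 RPKM in the other Cko-NS libraries. The securin gene Pttg1 averaged 27.0 RPKM in Cko-ST, 41.7 in Cko-NS, 28.7 in WT-ST and 50.5 in WT-NS.

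**Figure D1:**
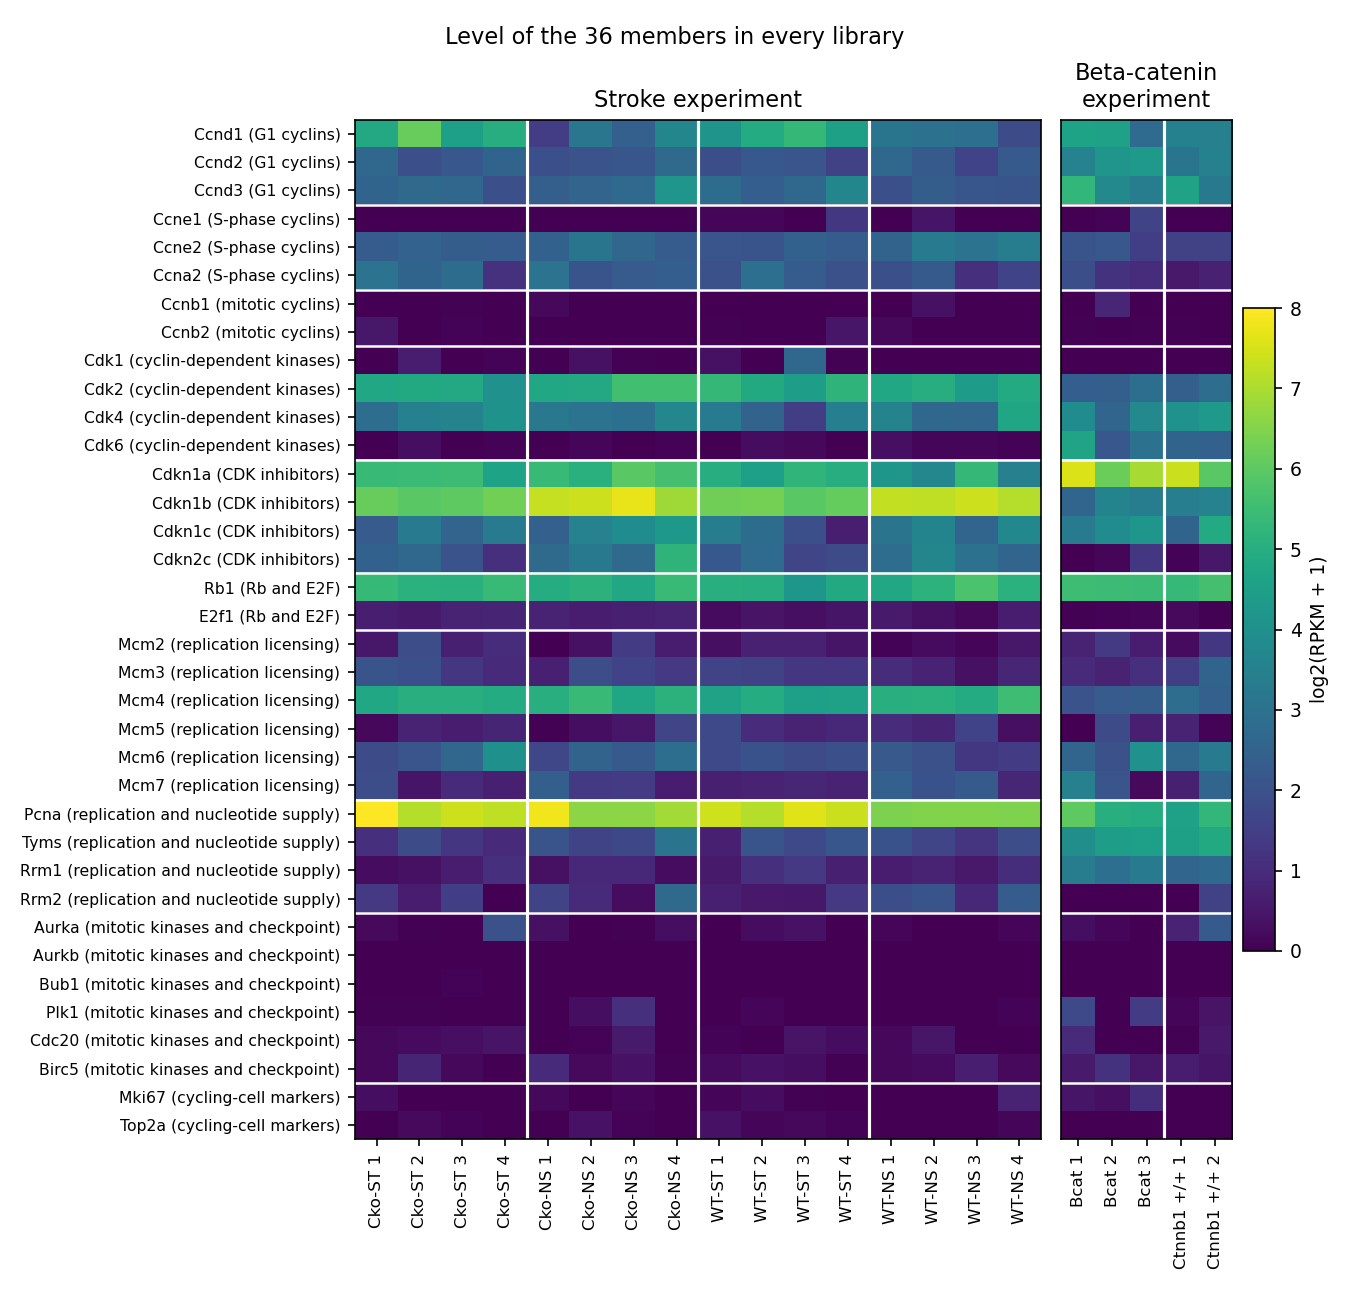
Level of the 36 members as log2(RPKM + 1) in every library, with members grouped by role and libraries by group; the left panel holds the stroke experiment and the right panel the beta-catenin experiment, and the colour scale runs from 0 to 8. Most values of the genes of mitosis at the bottom are near 0, with Aurka brightest among them at 3.79 RPKM in a Ctnnb1 +/+ library, and Cdkn1b and Pcna are the brightest rows of the left panel.

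The members with a clear signal in the stroke experiment belonged to the G1 machinery and to replication. The S-phase kinase Cdk2 averaged 24.3 RPKM in Cko-ST, 37.0 in Cko-NS, 31.3 in WT-ST and 26.7 in WT-NS. The retinoblastoma gene Rb1 averaged 36.6 RPKM in Cko-ST, 32.9 in Cko-NS, 26.8 in WT-ST and 36.8 in WT-NS. Mcm4, a subunit of the helicase that licenses replication origins, averaged 30.0 RPKM in Cko-ST, 33.1 in Cko-NS, 24.4 in WT-ST and 34.5 in WT-NS. None of these 3 passed the test in any of the 5 comparisons. Of the D cyclins, Ccnd2 averaged 4.24 RPKM in Cko-ST, 3.79 in Cko-NS, 2.91 in WT-ST and 3.73 in WT-NS. Cdk4, their kinase, averaged 10.9 RPKM in Cko-ST, 8.54 in Cko-NS, 6.32 in WT-ST and 11.8 in WT-NS. Cdk6, the other partner kinase, was at or below 0.257 RPKM in all 16 libraries.

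Promoter windows from RefSeq (GRCm38.p6), running from 250 bases before to 50 bases after a gene's start, were at hand for 28 of the 36 members in 32 windows. Sequences are shown for Cdkn1b and Pcna, which passed the test in a stroke comparison, and for Ccnb2, as one of the mitotic genes near 0. The windows are chr6:134920151-134920450 on the plus strand for Cdkn1b, chr2:132253131-132253430 on the minus strand for Pcna and chr9:70421505-70421804 on the minus strand for Ccnb2. Capitals mark the CCAAT box, read as CCAAT or as ATTGG on the other strand, and in Ccnb2 also the CHR letters TTTGAA.
Cdkn1b: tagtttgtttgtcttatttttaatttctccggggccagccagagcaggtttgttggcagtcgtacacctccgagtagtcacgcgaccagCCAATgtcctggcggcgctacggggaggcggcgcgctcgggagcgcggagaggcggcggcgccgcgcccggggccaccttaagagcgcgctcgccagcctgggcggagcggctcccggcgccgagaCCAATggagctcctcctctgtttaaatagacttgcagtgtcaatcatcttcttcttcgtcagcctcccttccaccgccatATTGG
Pcna: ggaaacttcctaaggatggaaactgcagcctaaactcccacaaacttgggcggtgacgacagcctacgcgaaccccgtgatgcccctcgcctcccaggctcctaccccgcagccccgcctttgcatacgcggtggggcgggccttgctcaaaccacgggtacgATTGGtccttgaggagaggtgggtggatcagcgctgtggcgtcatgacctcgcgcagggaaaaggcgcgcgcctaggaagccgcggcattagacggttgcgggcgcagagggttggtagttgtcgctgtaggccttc
Ccnb2: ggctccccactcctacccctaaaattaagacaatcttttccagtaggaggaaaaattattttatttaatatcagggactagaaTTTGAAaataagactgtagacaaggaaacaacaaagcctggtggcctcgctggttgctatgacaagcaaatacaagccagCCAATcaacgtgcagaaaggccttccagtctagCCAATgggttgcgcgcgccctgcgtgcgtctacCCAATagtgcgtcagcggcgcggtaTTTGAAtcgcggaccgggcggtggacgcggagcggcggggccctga
The Cdkn1b window holds 3 CCAAT boxes and the Pcna window holds 1, and neither holds CHR letters. The Ccnb2 window holds 3 CCAAT boxes and 2 matches to CHR.

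Over all member windows, searched on both strands, CCAAT was found in 68.8%, against 37.4% of all 32851 RefSeq windows. E2F letters (any of the 4 words TTCGCGC, else TTGGCGC, else TTCCCGC, else TTGCCGC) were found in 37.5% of member windows, against 9.57% of all windows. The replication-licensing genes had 6 windows, of which 6 held CCAAT and 5 held E2F letters. CHR letters were in 25.0% of member windows, against 17.9% of all windows. Letters bound by the TCF and LEF factors of the Wnt pathway (CTTTGAA or CTTTGAT, the first of which contains the CHR letters) were in 9.38% of member windows, against 8.65% of all windows. The p53 consensus was found in 1 member window, that of Cdkn1a, and in 24 windows in all. A match describes the letters of a window and is not a measured binding site.

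The first comparison asked what stroke did within each genotype. Ccnd1, the D cyclin that responds to growth signals, was at 27.6, 70.0, 21.9 and 30.3 RPKM in Cko-ST, against 1.75, 7.76, 4.47 and 11.8 RPKM in Cko-NS. It was at 16.5, 29.1, 39.4 and 22.4 RPKM in WT-ST, against 7.69, 7.11, 6.64 and 2.64 RPKM in WT-NS. Every stroke library of a genotype lay above every non-stroke library of that genotype. On the log2(RPKM + 1) scale Ccnd1 rose by 2.44 ± 0.44 (SE, limma, adjusted p = 0.00111) in Cko and by 2.0 ± 0.44 (adjusted p = 0.00532) in WT.

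Cdkn1b, which encodes the CDK inhibitor p27, moved the other way. It was at 69.9, 60.9, 64.2 and 77.6 RPKM in Cko-ST, against 157, 168, 210 and 115 RPKM in Cko-NS. It was at 75.1, 78.5, 60.6 and 68.2 RPKM in WT-ST, against 151, 149, 167 and 137 RPKM in WT-NS. The 8 stroke libraries spanned 60.6 to 78.5 RPKM, and none of the 8 non-stroke libraries was below 115 RPKM. The gene fell by 1.22 ± 0.17 on the log2 scale in Cko (SE, limma, adjusted p = 0.000116) and by 1.09 ± 0.17 in WT (adjusted p = 0.000337). It averaged 68.1 ± 7.31 RPKM in Cko-ST and 163 ± 39.0 RPKM in Cko-NS, and 70.6 ± 7.91 RPKM in WT-ST and 151 ± 12.2 RPKM in WT-NS (SD, n = 4 each). In sorted bulk cells, fewer cells with the transcript and less transcript per cell cannot be told apart.

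In Cko these were the only members called, 1 that rose and 1 that fell of 19 tested (10.5%), while 15.2% of all 9838 genes tested were called (634 or 6.44% rose, 857 or 8.71% fell). The median change was -0.26 over the tested members and -0.13 over all genes. With median-of-ratios scaling the all-gene median came to -0.01 and the split to 868 and 599. Ccnd1 then rose by 2.57 (adjusted p = 0.000674) and Cdkn1b fell by 1.06 (adjusted p = 0.000457). In WT 2 members rose and 2 fell of 19 (21.1% called), against 13.3% of all genes (8.46% rose, 4.84% fell), with a median of -0.25 over the members and 0.01 over all genes. The member shares lay on either side of the all-gene share.

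**Figure D2:**
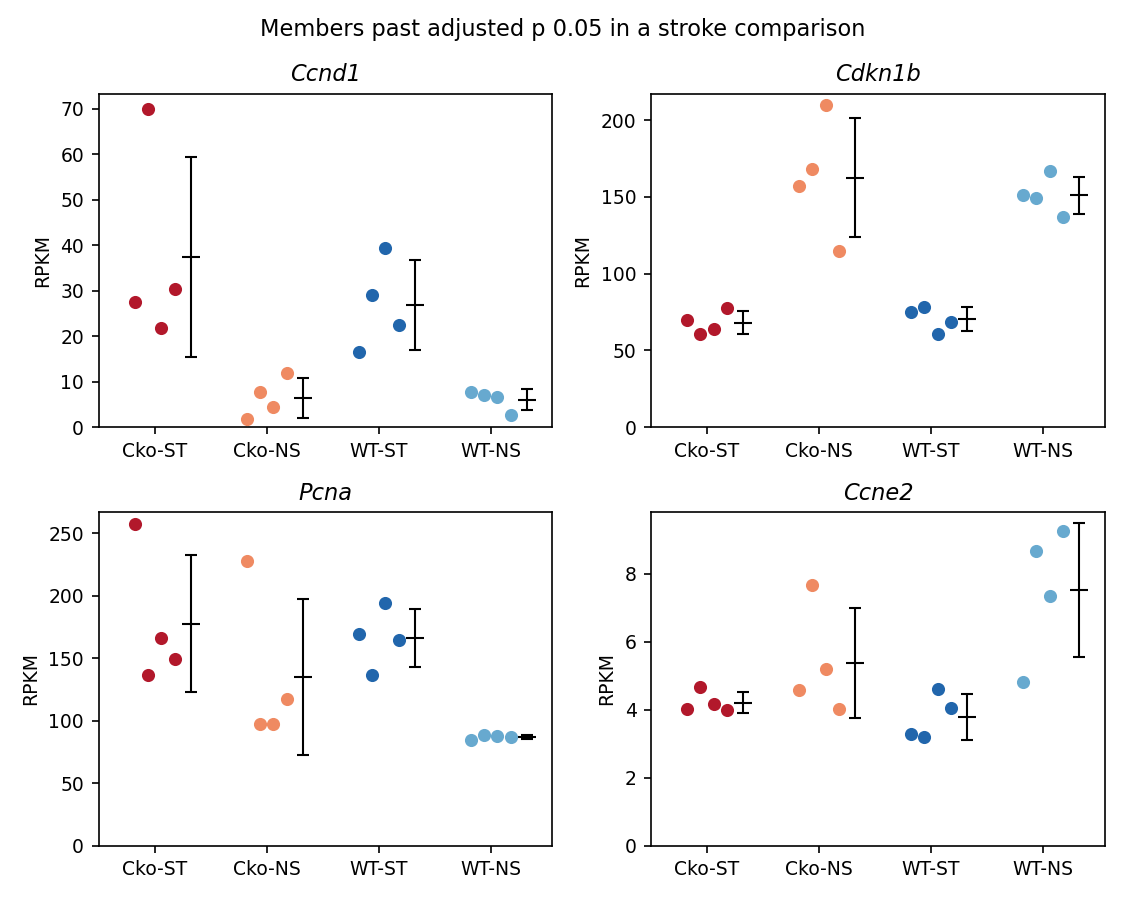
RPKM of Ccnd1, Cdkn1b, Pcna and Ccne2 in each library (coloured points) of Cko-ST, Cko-NS, WT-ST and WT-NS, with the group mean ± SD in black (n = 4 each). For Ccnd1 and Cdkn1b the stroke and non-stroke points do not overlap within a genotype, and Cko-NS 1 stands at 227 RPKM of Pcna.

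The other calls in WT were Pcna and Ccne2. Pcna, the sliding clamp of DNA polymerase and also a factor of DNA repair, was at 169, 137, 194 and 164 RPKM in WT-ST, against 84.8, 88.3, 88.1 and 86.8 RPKM in WT-NS. The groups did not overlap, and Pcna rose by 0.91 ± 0.24 on the log2 scale (SE, limma, adjusted p = 0.0158). In Cko it was at 258, 137, 166 and 149 RPKM in Cko-ST, against 227, 97.2, 97.6 and 118 RPKM in Cko-NS. Those groups overlapped through Cko-NS 1, and the difference of 0.44 ± 0.24 had an adjusted p of 0.232. Leaving out 1 library in turn moved it between 0.25 (adjusted p = 0.544, without Cko-ST 1) and 0.72 (adjusted p = 0.0216, without Cko-NS 1). The Cko numbers were taken as paired, and Pcna was higher in the stroke library in all 4 pairs, as were 14.2% of all genes tested. With genotype and number as the block the adjusted p was 0.0578, and the WT call was lost without WT-ST 3 (adjusted p = 0.0525).

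Ccne2, a cyclin that partners CDK2 at the entry into S phase, was at 3.28, 3.21, 4.61 and 4.04 RPKM in WT-ST, against 4.82, 8.67, 7.33 and 9.26 RPKM in WT-NS. The groups lay apart by a small margin, and Ccne2 fell by 0.81 ± 0.25 on the log2 scale (SE, limma, adjusted p = 0.0416). This call was lost when any 1 of 7 of the 8 libraries was left out, with adjusted p between 0.0503 and 0.117, and it held without WT-NS 1. In Cko it averaged 4.21 ± 0.317 RPKM in Cko-ST and 5.37 ± 1.61 RPKM in Cko-NS (SD, n = 4 each), which overlapped, with an adjusted p of 0.531.

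Markers of other cell types were not evenly spread over the groups. The summed RPKM of 7 microglia and macrophage markers was 0.814 to 3.6 in Cko-ST, 7.01 to 16.3 in Cko-NS, 1.07 to 4.71 in WT-ST and 1.06 to 83.2 in WT-NS. That of 5 oligodendrocyte-lineage markers was 15.1 to 247 in Cko-ST, 40.0 to 485 in Cko-NS, 27.3 to 342 in WT-ST and 175 to 956 in WT-NS. That of 6 mural markers was 11.7 to 99.8 in Cko-ST, 17.2 to 30.4 in Cko-NS, 8.25 to 46.3 in WT-ST and 41.3 to 64.2 in WT-NS. That of 5 leukocyte markers was 4.22 to 19.5 in Cko-ST, 8.89 to 83.3 in Cko-NS, 2.06 to 42.6 in WT-ST and 0 to 7.63 in WT-NS, with Cd3e at 0 in all 16. That of 3 neuronal markers was 0.272 to 3.0 in Cko-ST, 3.48 to 25.8 in Cko-NS, 3.10 to 9.56 in WT-ST and 3.64 to 11.5 in WT-NS, without overlap in Cko. That of 4 astrocyte markers reached at most 1.29 RPKM in any stroke library. The neuronal gene Snap25 fell in Cko (limma, adjusted p = 0.0179) and the microglial gene P2ry12 fell in WT (adjusted p = 0.0452). The part of these cells in the changes of the members was not tested. Estimated depth was 11.6 to 19.7 M reads in Cko-ST, 7.22 to 11.6 in Cko-NS, 6.55 to 19.2 in WT-ST and 4.72 to 14.5 in WT-NS.

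The remaining tested members did not pass the test in either genotype, which does not show that they did not differ. Among the other CDK inhibitors, Cdkn2c (p18) was at 4.57, 5.36, 3.14 and 1.11 RPKM in Cko-ST, against 5.78, 8.39, 5.87 and 36.2 RPKM in Cko-NS. The Cko groups did not overlap, and the difference of -1.43 ± 0.48 had an adjusted p of 0.0534 (limma). Without Cko-NS 4 the difference shrank to -0.86 (adjusted p = 0.161), while it passed the threshold without Cko-NS 1 (-1.67, adjusted p = 0.0409) or Cko-NS 3 (-1.67, adjusted p = 0.0426). Cdkn2c was lower in the stroke library in all 4 Cko pairs, as were 23.1% of all genes tested, and with genotype and number as the block the adjusted p was 0.0805. In WT Cdkn2c averaged 3.57 RPKM in WT-ST and 7.49 RPKM in WT-NS, which overlapped (adjusted p = 0.243). Cdkn1c (p57) averaged 6.76 RPKM in Cko-ST and 11.8 RPKM in Cko-NS, and 4.69 RPKM in WT-ST and 9.03 RPKM in WT-NS, with overlap in both pairs.

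Cdkn1a, the p53 target that encodes p21, was at 40.9, 42.7, 44.1 and 24.0 RPKM in Cko-ST, against 41.5, 32.8, 60.3 and 48.5 RPKM in Cko-NS. It was at 30.3, 21.9, 36.9 and 30.9 RPKM in WT-ST, against 17.9, 12.0, 39.2 and 10.1 RPKM in WT-NS. WT-NS 3 lay above all 4 WT-ST libraries and the other WT-NS libraries lay below them. The WT difference of 0.75 ± 0.33 had an adjusted p of 0.150 (limma), and of 0.0123 without WT-NS 3.

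Ccnd3, the third D cyclin, averaged 6.95 RPKM in WT-ST and 3.44 RPKM in WT-NS without overlap, but its difference of 0.76 ± 0.36 did not pass (limma, adjusted p = 0.181). In Cko it averaged 4.73 RPKM in Cko-ST and 7.99 RPKM in Cko-NS with overlap, a difference of -0.49 ± 0.36 of the other sign (adjusted p = 0.389). Of the origin-licensing helicase, Mcm3 averaged 1.72 RPKM in WT-ST and 0.711 RPKM in WT-NS, also without overlap (adjusted p = 0.175). Its partner Mcm7 averaged 0.717 RPKM in WT-ST and 3.03 RPKM in WT-NS, overlapping through WT-NS 4, with a difference of -1.12 ± 0.41 (adjusted p = 0.0815, and 0.0260 without WT-NS 4). Mcm6, another subunit, averaged 6.58 RPKM in Cko-ST, 4.33 in Cko-NS, 2.73 in WT-ST and 2.43 in WT-NS, and like Mcm4 it overlapped between hemispheres in both genotypes. Mcm2 and Mcm5 were too low to be tested, at no more than 2.69 and 2.44 RPKM in any stroke library.

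The enzymes of nucleotide supply were low in the stroke experiment. Thymidylate synthase, Tyms, averaged 1.55 RPKM in Cko-ST, 3.78 in Cko-NS, 2.42 in WT-ST and 2.30 in WT-NS. Rrm2, a subunit of ribonucleotide reductase, averaged 0.959 RPKM in Cko-ST, 2.27 in Cko-NS, 0.766 in WT-ST and 2.73 in WT-NS. Its partner subunit Rrm1 was at 0.201 to 1.51 RPKM and was not tested. Ccna2, the cyclin of S and G2 phase, averaged 4.87 RPKM in Cko-ST, 4.64 in Cko-NS, 4.15 in WT-ST and 2.48 in WT-NS. Tyms, Rrm2 and Ccna2 overlapped between hemispheres in both genotypes.

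Groups that did not overlap, called or not, were counted for every gene tested. In WT 4 members were higher and 2 lower in stroke, against 11.9% and 8.70% of all genes. In Cko 1 was higher and 2 were lower, against 7.40% and 11.4% of all genes.

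**Figure D3:**
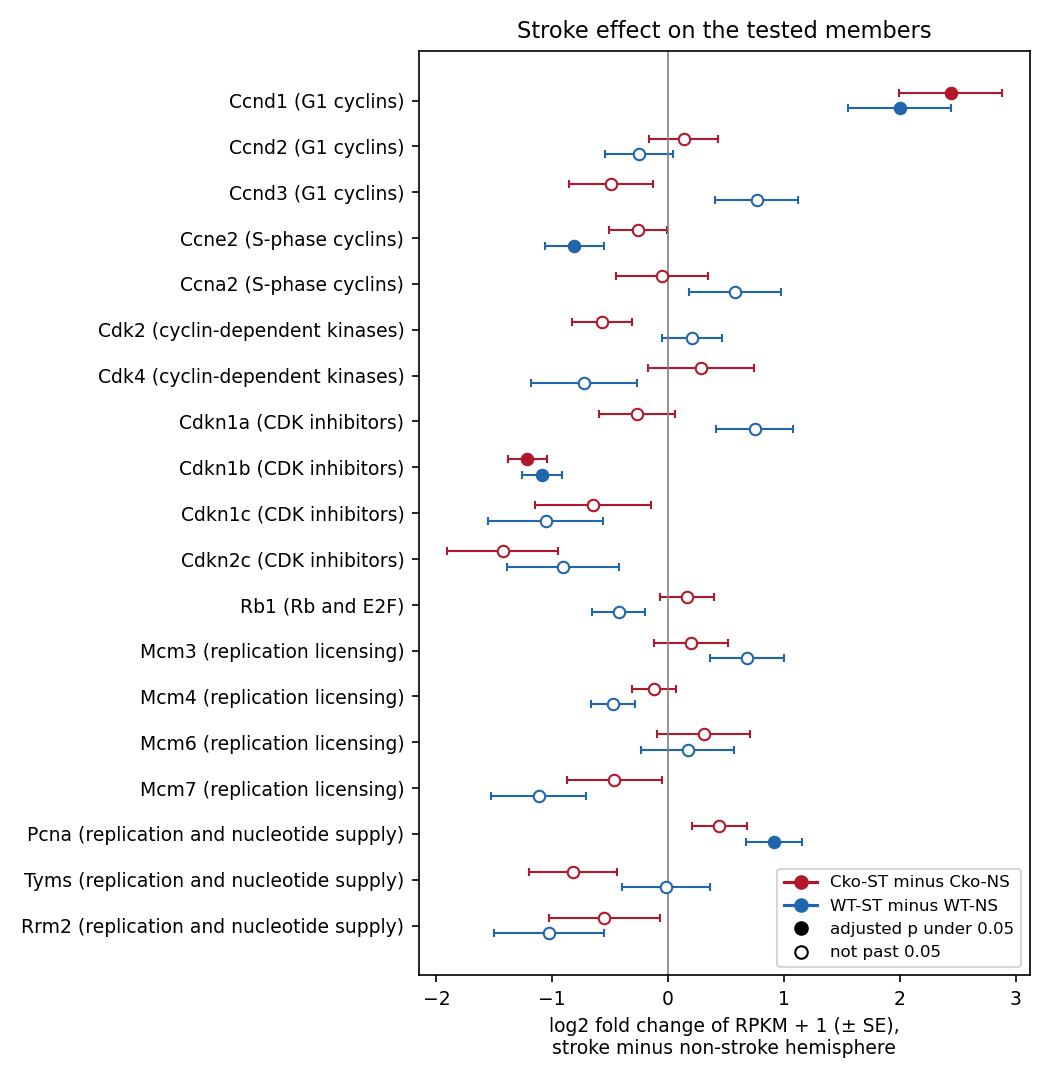
Stroke effect on the 19 tested members, as log2 fold change of RPKM + 1 ± SE for Cko-ST minus Cko-NS (red) and WT-ST minus WT-NS (blue); filled points have an adjusted p under 0.05. Ccnd1 lies near 2 and Cdkn1b near -1 in both genotypes, and the open points lie between -1.43 and 0.76.

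A list of 96 other cell-cycle genes gave the surroundings of the members, and 53 of them were tested in the stroke experiment. In Cko 4 rose and 1 fell, or 9.43% against the 15.2% of all genes, and in WT 7 rose and 2 fell, or 17.0% against 13.3%. Of the 11 tested genes of p53 and growth arrest, 2 rose and 1 fell in Cko and 5 rose in WT. Only 8 of 27 genes of spindle, kinetochore and cytokinesis were high enough to be tested, and none of the 8 was called in either genotype by limma. In each genotype 1 was at an unadjusted p under 0.05, while 15.2% (Cko) and 13.3% (WT) of all genes passed even after adjustment.

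Gadd45a, a stress-induced gene of growth arrest and DNA repair, was at 119, 81.5, 104 and 120 RPKM in Cko-ST, against 33.4, 36.8, 63.2 and 30.8 RPKM in Cko-NS. It was at 72.7, 77.7, 111 and 67.5 RPKM in WT-ST, against 28.3, 40.2, 54.7 and 27.8 RPKM in WT-NS. It rose by 1.39 ± 0.25 on the log2 scale in Cko (limma, adjusted p = 0.00108) and by 1.13 ± 0.25 in WT (adjusted p = 0.00556). Btg1, an antiproliferative gene, rose with it, and averaged 262 RPKM in Cko-ST against 106 RPKM in Cko-NS (adjusted p = 0.000655), and 208 RPKM in WT-ST against 98.0 RPKM in WT-NS (adjusted p = 0.00232). Neither gene's stroke libraries overlapped its non-stroke libraries within a genotype.

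Uhrf1, which recruits maintenance DNA methylation at replication, averaged 14.9 RPKM in Cko-ST and 2.64 RPKM in Cko-NS, and rose by 2.03 ± 0.33 on the log2 scale (limma, adjusted p = 0.000376). In WT it averaged 11.5 RPKM in WT-ST and 5.07 RPKM in WT-NS (adjusted p = 0.0279), a call that was lost without any 1 of WT-ST 2, 3 and 4 and WT-NS 3 and 4, at 0.0536 to 0.0903. Slbp, the histone mRNA binding protein, rose in Cko, with 232 RPKM in Cko-ST and 117 RPKM in Cko-NS on average (adjusted p = 0.00646). In WT it averaged 152 RPKM in WT-ST and 157 RPKM in WT-NS (adjusted p = 0.947), and the stroke effects differed by 1.00 ± 0.31 (adjusted p = 0.681). In WT the kinase Wee1, which holds CDK1 inactive, rose by 1.49 ± 0.34 (adjusted p = 0.00592), with 41.5 RPKM in WT-ST and 15.3 RPKM in WT-NS. Bax, a death effector and p53 target, rose by 1.11 ± 0.24 (adjusted p = 0.00402), with 93.3 RPKM in WT-ST and 42.6 RPKM in WT-NS. In Cko neither passed, with differences of the same sign of 0.96 ± 0.34 for Wee1 (adjusted p = 0.0631) and 0.64 ± 0.24 for Bax (adjusted p = 0.0769).

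Tfdp2, the dimer partner of E2F factors, fell by 1.48 ± 0.28 in WT (limma, adjusted p = 0.00190), with 7.97 RPKM in WT-ST and 24.1 RPKM in WT-NS on average and no overlap. In Cko its difference was -0.85 ± 0.28 (adjusted p = 0.0528). Gadd45g rose in WT by 1.53 ± 0.39 (adjusted p = 0.0138), which was lost without WT-NS 4 (adjusted p = 0.0562), and its difference in Cko was 1.10 ± 0.39 (adjusted p = 0.0661). Sesn1, a p53 target of the stress response, fell by 2.11 ± 0.64 in Cko (adjusted p = 0.0316). Its libraries overlapped, with 7.24, 6.56, 35.9 and 0.845 RPKM in Cko-ST against 44.5, 32.2, 67.3 and 13.2 RPKM in Cko-NS, and the call was lost without any 1 of the 6 libraries other than Cko-ST 3 and Cko-NS 4, at 0.0568 to 0.101. Sesn1 was lower in the stroke library in all 4 Cko pairs, and with genotype and number as the block its adjusted p was 0.00213. The last calls in WT were Gadd45b, which rose, and Cdk7, which fell, with adjusted p of 0.0453 and 0.0378. Gadd45b was lost without any 1 of 5 of the 8 libraries (0.0807 to 0.130) and Cdk7 without any 1 of 7 (0.0525 to 0.106).

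**Figure D4:**
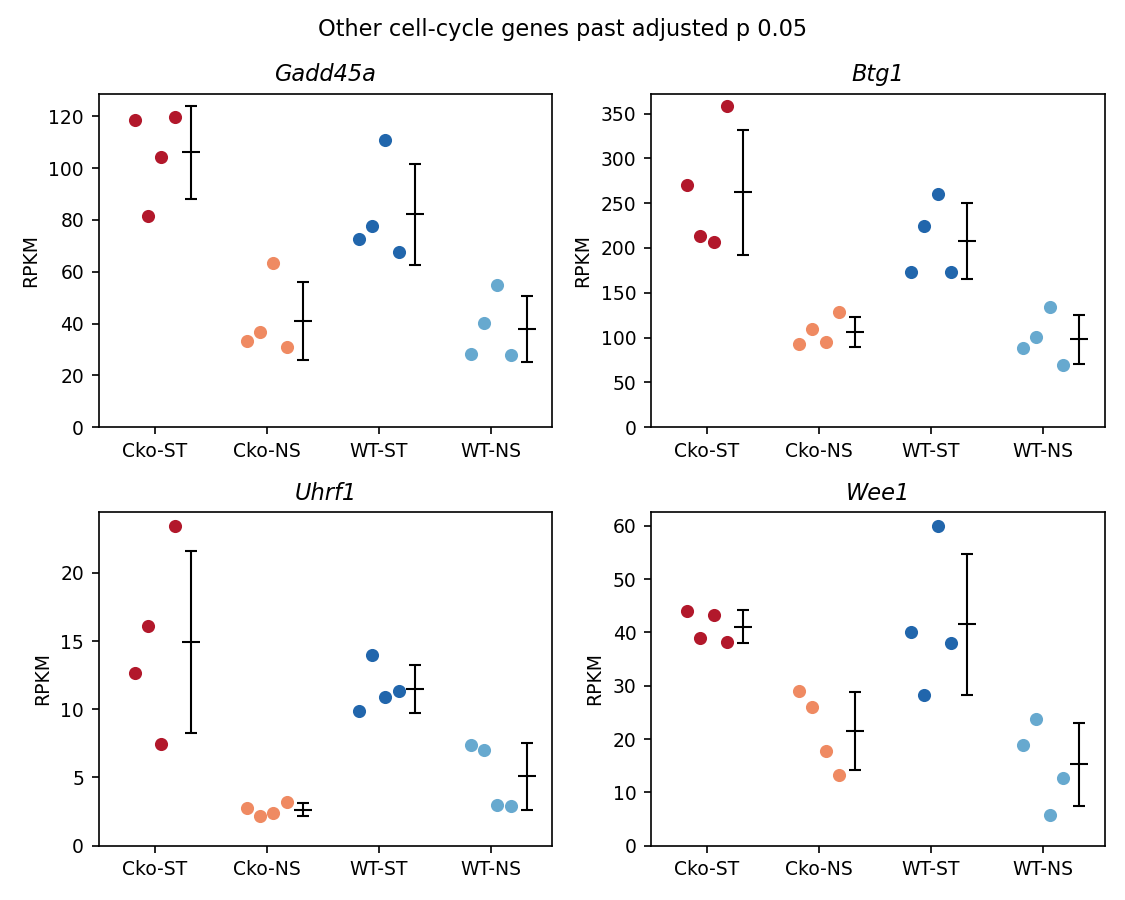
RPKM of Gadd45a, Btg1, Uhrf1 and Wee1 in each library (coloured points) of Cko-ST, Cko-NS, WT-ST and WT-NS, with the group mean ± SD in black (n = 4 each). Stroke points lie above non-stroke points within each genotype for all 4 genes.

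The next comparison asked whether loss of Gpr124 changed these genes. In the stroke hemisphere 0 of 19 members were called between Cko-ST and WT-ST, where 0% of all genes were called by limma, and 0 members were at an unadjusted p under 0.05, against 4.84% of all genes. Ccnd1 averaged 37.4 ± 22.0 RPKM in Cko-ST and 26.9 ± 9.84 RPKM in WT-ST (SD, n = 4 each), with a difference of 0.39 ± 0.44 on the log2 scale and overlapping libraries. Rb1 was the 1 tested member whose libraries did not overlap, at 32.5 to 41.1 RPKM in Cko-ST against 17.6 to 31.4 RPKM in WT-ST. E2f1, too low to be tested, also lay apart, at 0.502 to 0.782 RPKM in Cko-ST against 0.184 to 0.362 RPKM in WT-ST. It did so in the non-stroke hemisphere too, at 0.540 to 0.715 RPKM in Cko-NS against 0.130 to 0.509 RPKM in WT-NS. Among all genes tested, which leave out E2f1, groups that lay apart made up 1.46% for higher and 1.86% for lower in Cko-ST. Rb1 was not called, and its adjusted p was within the members' range of 0.994 to 0.998.

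In the non-stroke hemisphere 0 of 19 members were called between Cko-NS and WT-NS by limma, where 0.315% of all genes were, and 3 were at an unadjusted p under 0.05, against 14.3% of all genes. These were Cdkn1a, Pcna and Ccnd3. Cdkn1a averaged 45.8 RPKM in Cko-NS and 19.8 RPKM in WT-NS, a difference of 1.33 ± 0.33 with an adjusted p of 0.0772. Its groups overlapped through WT-NS 3, and without that library the difference was 1.71 with an adjusted p of 0.0190. Left out in turn, the libraries gave 1.09 to 1.71, and with the replicate number as a block the 1.33 passed (adjusted p = 0.0409), although these groups differ in genotype and share only numbers. Pcna and Ccnd3 lay higher in every Cko-NS library than in any WT-NS library, as did 6.66% of all genes, while 2.04% lay lower. Their adjusted p were 0.322 and 0.301.

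Whether stroke acted differently in the 2 genotypes was tested as the stroke effect in Cko minus that in WT. None of the 19 members was called by limma and none of the 9838 genes (0%), with 3 members at an unadjusted p under 0.05 against 7.02% of all genes. The difference of stroke effects was 0.44 ± 0.63 for Ccnd1 (adjusted p = 0.917), -0.13 ± 0.24 for Cdkn1b (adjusted p = 0.934), -0.47 ± 0.34 for Pcna (adjusted p = 0.799) and 0.55 ± 0.36 for Ccne2 (adjusted p = 0.780). The calls of Pcna and Ccne2 in WT alone are thus not shown to differ between genotypes. The 3 members at an unadjusted p under 0.05 were Ccnd3 at -1.26 ± 0.51, Cdkn1a at -1.02 ± 0.47 and Cdk2 at -0.78 ± 0.37, with adjusted p of 0.681, 0.702 and 0.702. Of the 53 other cell-cycle genes none was called by limma, and 7.55% were at an unadjusted p under 0.05.

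The last comparison asked what stabilised beta-catenin did in endothelial cells without stroke. None of 19 tested members was called between Bcat and Ctnnb1 +/+ by limma, where 0% of 11252 genes were called, and 0 members were at an unadjusted p under 0.05, against 5.24% of all genes. With 3 against 2 libraries the members' differences had SEs of 0.25 to 0.99 on the log2 scale, and a missed threshold here does not show that a member did not differ. Estimated depth was 11.6 to 15.1 M reads in Bcat and 6.62 to 7.36 M in Ctnnb1 +/+. Summed RPKM of the endothelial markers was 1694 to 1913 in Bcat and 1998 to 2261 in Ctnnb1 +/+, without overlap. Summed RPKM of the mural markers was 13.5 to 76.0 in Bcat and 19.0 to 26.9 in Ctnnb1 +/+, that of the astrocyte markers 0.378 to 5.16 in Bcat and 0.395 to 0.602 in Ctnnb1 +/+, and that of the neuronal markers 1.47 to 5.02 in Bcat and 0.815 to 1.74 in Ctnnb1 +/+. The part of these in the results was not tested. Ccnd1, a known target of beta-catenin in other tissues, was at 23.8, 22.7 and 5.92 RPKM in Bcat, against 10.4 and 10.2 RPKM in Ctnnb1 +/+. Bcat 3 lay below both Ctnnb1 +/+ libraries and the other Bcat libraries lay above them, and the difference of 0.50 ± 0.57 had an adjusted p of 0.970. It was 1.10 without Bcat 3 and 0.18 without Bcat 1 (adjusted p = 0.718 and 0.973).

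Ccnd2 was at 10.7, 17.1 and 19.1 RPKM in Bcat, against 7.59 and 10.4 RPKM in Ctnnb1 +/+, just clear of overlap, with a difference of 0.71 ± 0.40 (limma, adjusted p = 0.966). Cdk4 was at 13.7, 5.07 and 12.7 RPKM in Bcat, against 16.4 and 18.8 RPKM in Ctnnb1 +/+, with a difference of -0.79 ± 0.47 (adjusted p = 0.966). Cdk6 was at 24.4, 3.53 and 7.02 RPKM in Bcat, against 4.94 and 4.56 RPKM in Ctnnb1 +/+, and overlapped. Libraries did not overlap for 3 tested members that were higher in Bcat (Ccnd2, Ccna2 and Rrm1) and 4 that were lower (Cdk4, Mcm3, Mcm4 and Tyms), against 8.66% and 11.7% of all genes. Among the members too low to be tested, Mki67 lay higher in Bcat (0.259 to 1.08 RPKM against 0 in both Ctnnb1 +/+ libraries). Aurka lay lower (0 to 0.225 RPKM in Bcat against 0.722 and 3.79 RPKM). The shares of all genes cover tested genes only, so there is none to set beside these low members. Estimated depth was higher in Bcat (11.6 to 15.1 M reads against 6.62 to 7.36 M), and its part was not tested.

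Cdkn1a had the highest mean RPKM of the members in this experiment, at 188, 72.0 and 124 RPKM in Bcat, against 164 and 60.5 RPKM in Ctnnb1 +/+, with overlap. Rb1 was at 44.6, 44.1 and 42.3 RPKM in Bcat, against 40.0 and 49.2 RPKM in Ctnnb1 +/+. Cdkn1b averaged 8.54 ± 3.15 RPKM in Bcat (SD, n = 3) and 10.1 ± 0.670 RPKM in Ctnnb1 +/+ (SD, n = 2). Pcna averaged 41.4 ± 18.8 RPKM in Bcat (SD, n = 3) and 30.5 ± 11.1 RPKM in Ctnnb1 +/+ (SD, n = 2). Mcm7 was scattered, with 10.3, 3.28 and 0.162 RPKM in Bcat, against 0.644 and 5.07 RPKM in Ctnnb1 +/+. Of 59 other cell-cycle genes tested, limma called none, and 6 (10.2%) were at an unadjusted p under 0.05, against 5.24% of all genes. Their libraries did not overlap for 4 that were higher in Bcat (6.78%) and 15 that were lower (25.4%), against 8.66% and 11.7% of all genes.

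**Figure D5:**
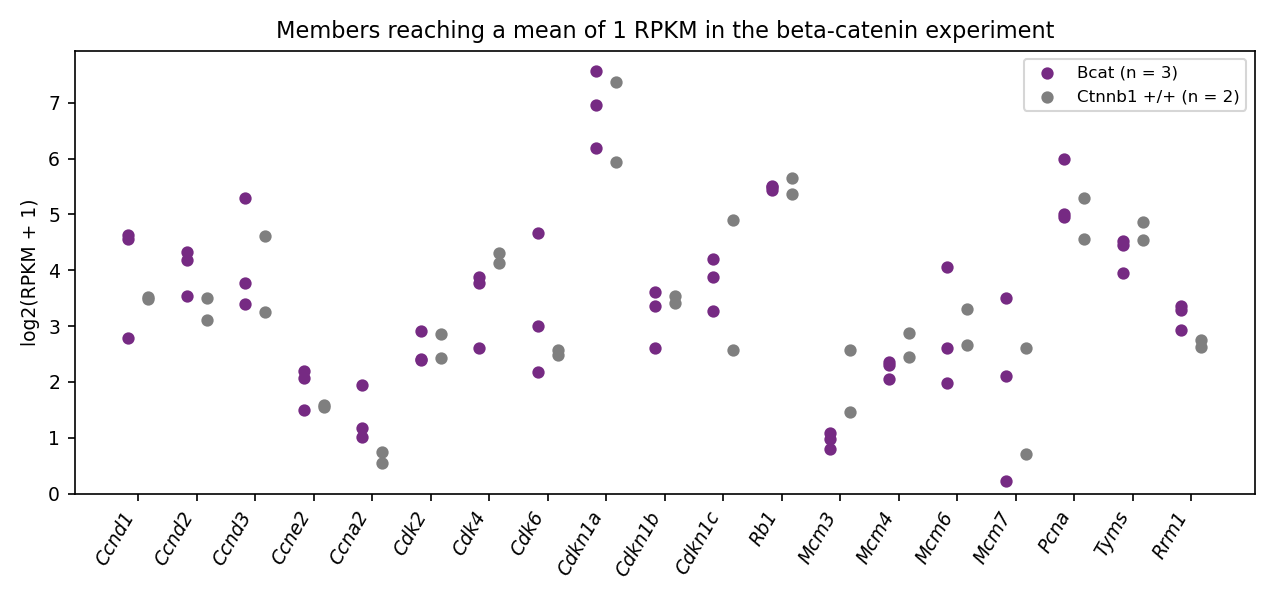
Level of the 19 members that reached a mean of 1 RPKM in the beta-catenin experiment, as log2(RPKM + 1) in each Bcat (purple, n = 3) and Ctnnb1 +/+ (grey, n = 2) library. The spread among Bcat libraries is wide for Ccnd1, Cdk6 and Mcm7, and narrow for Rb1.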

How the data were processed

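Expression was measured in 16 stroke and 5 beta-catenin libraries of sorted brain endothelial cells. The values are RPKM as deposited by the authors, 1 per gene and library. Per the submitters' processing notes, edgeR and mm10 were used. The aligner, annotation and gene lengths are unstated (not given in the sources used here). Per the labels' protocols a 3' kit was used for stroke RNA and a whole-transcript kit for the rest, so each experiment was fitted alone. Rows sharing a name (54 of 24260, with 23 names) were dropped, and 8 columns of no described sample were not used.

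Members, gene lists and tests were chosen with earlier results of these data known. Tests were made with R 4.3.3 and limma 3.58.1, two-sided, with a pseudocount of 1 before the log2 (which understates changes of low genes) and a mean of at least 1 RPKM over a fit's libraries as the filter. Adjustment was by Benjamini-Hochberg across every gene tested, at 0.05. The code was tested on simulated data, where the stroke fit missed part of the changes put in, more so the smaller ones. The fit of the beta-catenin experiment missed all of them. A missed threshold in either experiment thus does not show that a gene did not differ. Xist and Y-linked genes were left out. All members were to be named, and of 96 other cell-cycle genes up to 6 called per comparison, by adjusted p. Gadd45b, Cdk7 and the uncalled members given in full were chosen after their values were seen.

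Depth came from low values of 5563 single-transcript genes, by the read total that best turned them into whole reads (within 0.02). Between 35.8 and 40.8% were whole in stroke libraries and between 17.4 and 20.4% in the others, against 4% by chance, so depth is approximate. Deviations of same-numbered Cko-ST and Cko-NS libraries from their group means correlated at 0.104 to 0.218 over 9843 genes, all above 0.1, so these numbers were taken as paired. For WT-ST and WT-NS the values were 0.0117 to 0.130, and the numbers were not. The 2 ranges overlap, since WT number 2 at 0.130 was above Cko numbers 1 and 4 at 0.104 and 0.124. Libraries of unlike number were not correlated as a reference, so the pairing is an assumption. The main fit did not use it. Alternatives were a pseudocount of 0.5, no filter, median-of-ratios scaling, a replicate block, leaving out each library, and leaving out the 2 libraries whose sex by RNA went against the label. A block within genotype was added after seeing the data. It blocks by number in WT as well as in Cko, so its spread and its WT results rest on a pairing not assumed for WT.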

Additional observations from a re-analysis of the deposited data

Results flagged for a closer look

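In groups of 4 libraries, a gap test on the highest and lowest library (Dixon's, 95% level, about 1 group in 20 by chance) set 5 of 76 groups of members apart. Ccnd3 in Cko-NS 4 was at 16.9 RPKM, against 4.34 to 5.60 RPKM in the other Cko-NS libraries. Cdkn2c in Cko-NS 4 was at 36.2 RPKM, against 5.78 to 8.39 RPKM. Pcna in Cko-NS 1 was at 227 RPKM, against 97.2 to 118 RPKM. Cdk2 in Cko-ST 4 was at 15.4 RPKM, against 26.4 to 28.2 RPKM in the other Cko-ST libraries. Cdkn1a in Cko-ST 4 was at 24.0 RPKM, against 40.9 to 44.1 RPKM. Both libraries numbered 4 in Cko were male by their RNA, and Cko-NS 4 also had the highest summed leukocyte markers, at 83.3 RPKM. That sum came mainly from S100a8 and S100a9. Ptprc, of the same marker list, was at 0.944 RPKM in Cko-NS 4 and was highest in Cko-NS 1, at 8.92 RPKM. The part of sex and of these markers in the 5 values was not tested.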

How the results depend on the processing

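The calls of Ccnd1 and Cdkn1b in both stroke comparisons kept their direction and side of the threshold under every alternative run. Leaving out 1 library in turn, the log2 change of Ccnd1 was 2.03 to 2.77 in Cko and 1.71 to 2.20 in WT, and that of Cdkn1b -1.37 to -1.08 in Cko and -1.14 to -1.02 in WT. Counts of members that rose were then 1 to 2 in Cko, 1 to 3 in WT and 0 to 1 for genotype in the non-stroke hemisphere, and counts that fell were 1 to 2 in Cko and 1 to 2 in WT. The count of all genes called between genotypes, 31 in the non-stroke hemisphere and 0 in the stroke hemisphere, was 1 to 41 and 0 to 8. In the non-stroke hemisphere it was 19 with no filter on low values and 60 with the replicate block, which also called 1 member as higher, Cdkn1a (adjusted p = 0.0409). The block called Mcm7 as lower in WT (0.0362), as did the block within genotype (0.0398), which lost Ccne2 in WT (0.0577). Cdk7 in WT was lost with either block (0.0525 and 0.0571). No other call on a named gene changed with a block, the Cko calls included, where the numbers were taken as paired. With no filter, Sesn1 in Cko (0.0930), and Gadd45b (0.113) and Uhrf1 (0.0514) in WT were lost.

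Changes of sign arose among uncalled differences. With median-of-ratios scaling Cdkn1b was at -0.0604 for genotype in the non-stroke hemisphere and 0.0473 for the interaction. With single libraries left out, Cdkn1b ranged over -0.0556 to 0.232 (genotype, non-stroke hemisphere), -0.120 to 0.00217 (stroke hemisphere), -0.282 to 0.0054 (interaction) and -0.493 to 0.0113 (Bcat). Ccnd1 ranged over -0.39 to 0.35 for genotype in the non-stroke hemisphere, and Pcna over -0.13 to 0.17 in the stroke hemisphere. Where the cause of a change is not its construction (fewer libraries or other genes tested), the cause was not tested. Depth limits the lowest values of the genes of mitosis, where 3 reads in a gene of 2 kb came to 0.0762 to 0.318 RPKM. In a longer gene the same RPKM stands for more reads.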

Other observations

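Among the genes of mitosis that are not members, Nusap1, a spindle-associated protein gene, was singled out after its values were seen. It was at 11.1, 14.0 and 7.83 RPKM in Bcat, against 0.628 and 0.0385 RPKM in Ctnnb1 +/+, a difference of 3.17 ± 0.56 on the log2 scale with an unadjusted p of 0.000308 and an adjusted p of 0.494 (limma). All 3 Bcat libraries were above both others. In the same libraries Mki67 was at 0.375, 0.259 and 1.08 RPKM in Bcat and at 0 in both Ctnnb1 +/+ libraries, and Top2a was at 0 in all 5. Estimated depth was higher in Bcat (11.6 to 15.1 M reads) than in Ctnnb1 +/+ (6.62 to 7.36 M), and its part in these values was not tested.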
